A study of Homo sapiens with 12 samples.

Results

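The genes described here are 34 genes of cholesterol and fatty acid synthesis that are controlled by the sterol regulatory element binding proteins (SREBPs). They were chosen by symbol: 19 genes of the sterol branch, 11 of the fatty acid branch and 4 regulators of the SREBP system. Each gene was read from its brightest probe set, by the mean of all arrays, among probe sets annotated with that symbol alone. Of the 34 genes, 30 had such a probe set and 29 were tested, out of 10650 genes tested in all. A gene was tested where its probe set was above 4 on the log2 scale on at least 3 of the 12 arrays, in whatever group. The genes tested were 17 of the sterol branch, 8 of the fatty acid branch and all 4 regulators.

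The messenger RNA came from HK-2, an immortalised epithelial cell line from the proximal tubule of the human kidney, and was hybridised to Affymetrix arrays. There were 4 groups of 3 biological replicates each: cells given CsA for 12 h, control cells at 12 h, cells given CsA for 48 h and control cells at 48 h. CsA is taken to be cyclosporine A, a calcineurin inhibitor used against transplant rejection, and its dose is not given in the sources used here. Control cells received the vehicle alone. All groups grew in a medium with EGF, hydrocortisone, insulin, transferrin and selenite, of which insulin and glucocorticoid are themselves known to act on lipid synthesis genes. The question was how CsA and control cells differed in lipid synthesis genes at each time, branch by branch and pair by pair.

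Cells make cholesterol from acetyl-CoA through mevalonate, farnesyl diphosphate, squalene and lanosterol, and they make fatty acids from the same acetyl-CoA. SREBP-2 (gene SREBF2) mainly drives the sterol enzymes, and SREBP-1 (gene SREBF1) mainly the fatty acid enzymes. Both are made as precursors in the membrane of the endoplasmic reticulum (ER) and are carried to the Golgi for cleavage by SCAP. When sterols are plentiful, INSIG proteins hold SCAP back in the ER. INSIG1 is itself an SREBP target, so its messenger RNA is widely read as a measure of SREBP activity.

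The sterol and fatty acid genes stood slightly higher under CsA at 12 h, and the sterol genes stood lower under CsA at 48 h. At 12 h 25 of the 29 genes were above 0, with a median difference of 0.14 on the log2 scale against -0.01 over all genes tested. At 48 h 25 of the 29 were below 0, with a median of -0.22 against -0.02 over all genes. None of these differences passed the test for a single gene. The changes that did pass lay between the times. From 12 h to 48 h EBP and ELOVL6 fell in control cells, beside 13.5% of all genes tested. Under CsA NSDHL, INSIG1, EBP, ELOVL6, ACAT2, MVD, FDPS and IDI1 fell, beside 7.41% of all genes tested.

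Values are deposited log2 values, so a difference of 1 is a 2-fold difference, and each difference is given with its moderated standard error (SE). Array medians over all probe sets lay between 2.85 and 2.96. The spread within a group was wider at 48 h than at 12 h: the median SD of the lipid genes was 0.18 in control and 0.16 under CsA at 12 h, and 0.40 in both groups at 48 h. Over all genes these medians were 0.12, 0.12, 0.21 and 0.29. Within groups, arrays correlated least in CsA at 48 h, at 0.982 between replicates 1 and 3, and at 0.991 or more in the other groups. The mean correlation of an array with the others of that group was 0.989, 0.992 and 0.986 for replicates 1, 2 and 3. PAX8, a transcription factor of renal epithelium, lay between 10.7 and 11.3 over the 12 arrays, LHX1 between 3.50 and 6.37, and the epithelial cadherin CDH1 between 5.71 and 8.72. Of 10 proximal tubule and renal epithelium markers measured, 3 passed the filter (PAX8, CDH16 and LHX1), and LRP2, CUBN and AQP1, which define the differentiated proximal tubule, were below 4 on every array. All 5 simple epithelial markers passed, as did 2 of 5 fibroblast markers (COL1A1 and DCN), 1 of 4 endothelial, 0 of 4 leukocyte, 0 of 1 podocyte and 1 of 3 distal nephron markers. CDH1 ran from 5.71 to 6.44 in control and 5.88 to 6.93 under CsA at 12 h, and from 6.91 to 8.35 and 6.82 to 8.72 at 48 h. DCN, a proteoglycan of fibroblasts, ran from 8.07 to 9.41 and 8.29 to 9.30 at 12 h, and from 7.91 to 9.60 and 7.67 to 9.97 at 48 h, control before CsA. The part of these markers in the lipid gene results was not tested. In RNA from a whole culture, fewer cells of a type and less RNA per cell cannot be told apart.

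**Figure D1:**
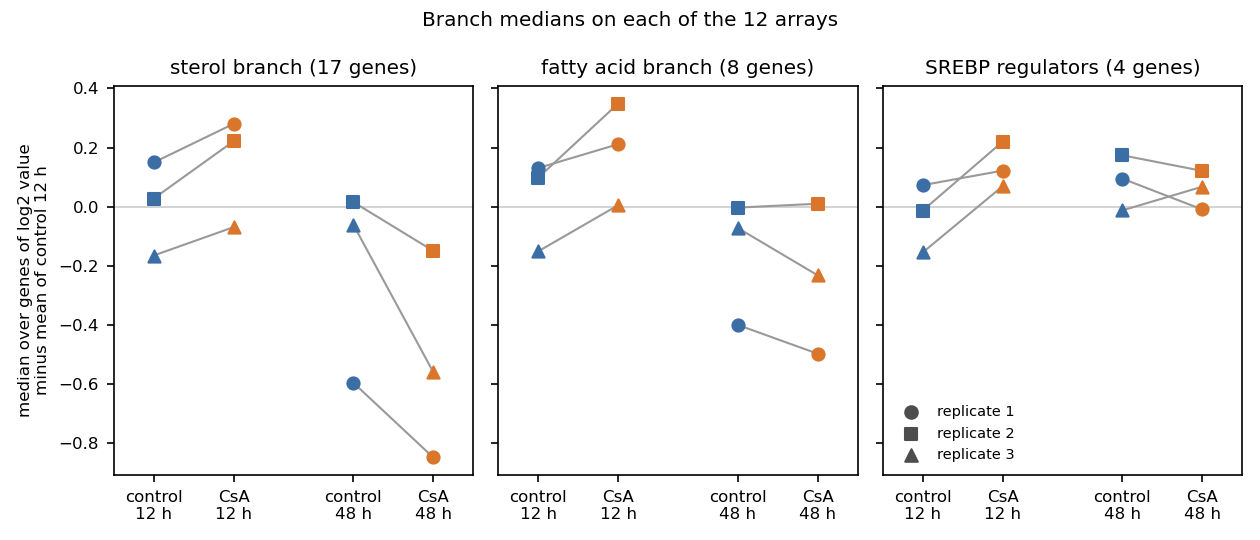
Median over the tested genes of each branch of the log2 value minus the gene's mean in control cells at 12 h, on each of the 12 arrays (blue control, orange CsA; symbols mark the replicate number, grey lines join the control and CsA array with the same number and time). For the sterol branch all 3 lines go up at 12 h and all 3 go down at 48 h, and replicate 1 is the lowest at 48 h in both control and CsA cells.

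The first question was which lipid genes differed early, at 12 h. In the sterol branch 14 of 17 genes were above 0, with a median of 0.14, and in the fatty acid branch all 8 were above 0, with a median of 0.14. Pair by pair, the sterol medians were 0.16, 0.11 and 0.17 and the fatty acid medians 0.11, 0.23 and 0.14 for replicates 1, 2 and 3. Of the 29 genes 22 were higher under CsA in all 3 pairs, beside 18.9% of all genes tested. Only PMVK, NSDHL and SCAP were lower in all 3 pairs, beside 22.3% of all genes. The 22 were 12 sterol genes, all 8 fatty acid genes, SREBF1 and INSIG1.

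These early differences were small against the SE of the fit without the pairs. That SE pools the spread within all 4 groups, which was wider at 48 h, so a gene has the same SE at both times. limma without the pairs called 0 of the 29 genes (0% of all genes). At an unadjusted p under 0.05 were 0 of the 29, beside 138 of all genes, or 1.30%. With the numbered pairs as a block limma also called 0 of the 29 (0.0282% of all genes), with 6 of them and 7.26% of all genes at an unadjusted p under 0.05 and a smallest adjusted p of 0.24 among the 29. A fit of the 12 h arrays alone, with the pairs as a block, a variance trend and robust moderation, was chosen after seeing the data. It called 5 of the 29 genes higher under CsA, beside 0.958% of all genes called higher. They were INSIG1 (limma adjusted p = 0.020), LPIN1 (0.021), STARD4 (0.022), SCD (0.035) and HSD17B7 (0.048). Each of the 5 had an adjusted p of 1.00 in the limma fit without the pairs. That fit also used all 12 arrays and no variance trend or robust moderation. With the pairs as a block but no trend or robust moderation, the 12 h arrays alone called 0 of the 29, beside 5 of all 10650 genes. The smallest limma adjusted p among the 29 was then 0.14. Without control replicate 3 at 12 h, 20 of the 29 genes were above 0 and the sterol median was 0.02, and the fatty acid median was 0.08. Without CsA replicate 1 the sterol median was 0.06, without CsA replicate 2 it was 0.07, and without CsA replicate 3 it was 0.27. For the fatty acid branch, leaving out CsA replicate 2 gave 0.08, control replicate 2 gave 0.24 and CsA replicate 3 gave 0.27. Whole pairs mattered less: the median of the 29 genes ran from 0.13 to 0.16 with any 1 pair left out.

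**Figure D2:**
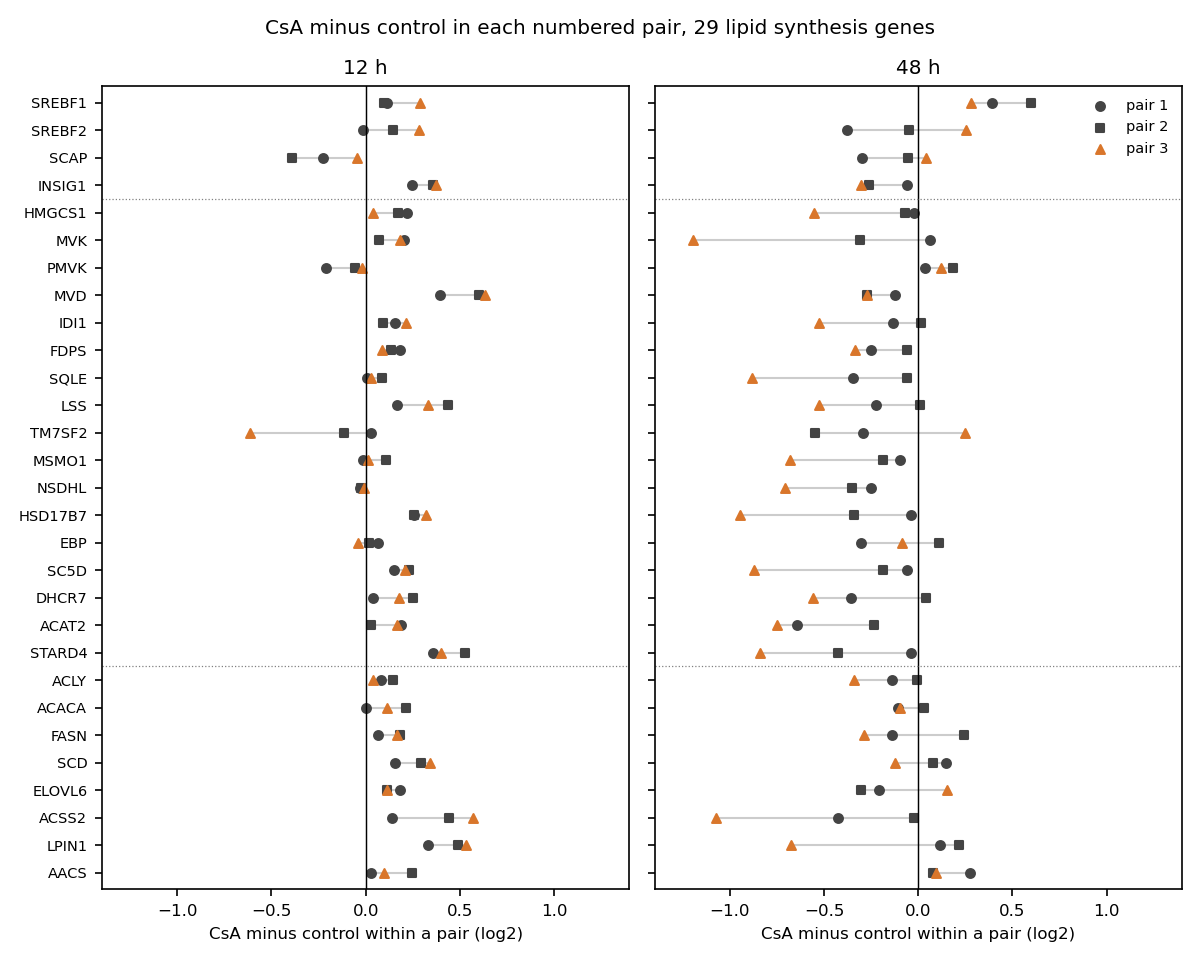
CsA minus control on the log2 scale within each numbered pair of arrays for the 29 tested genes, at 12 h (left) and 48 h (right); circles, squares and orange triangles are pairs 1, 2 and 3, and dotted lines separate regulators, sterol branch and fatty acid branch. At 12 h 22 genes have all 3 symbols to the right of 0, and at 48 h 13 have all 3 to the left, with pair 3 the lowest in 20 of the 29 genes, beside 44.4% of all genes tested.

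At 48 h the sterol branch stood lower under CsA and the fatty acid branch was mixed. In the sterol branch 16 of 17 genes were below 0, with a median of -0.29, and in the fatty acid branch 6 of 8 were below 0, with a median of -0.09. Of the 29 genes 13 were lower under CsA in all 3 pairs, beside 16.2% of all genes tested. They were 10 sterol genes, ACLY and ACSS2 of the fatty acid branch, and INSIG1. PMVK, AACS and SREBF1 were higher in all 3 pairs, beside 13.3% of all genes. The sterol medians of the pairs were -0.13, -0.19 and -0.56, lowest in pair 3. Pair 3 gave the lowest of the 3 differences in 20 of the 29 genes, beside 44.4% of all genes tested. The fatty acid medians were -0.12, 0.05 and -0.21. The difference between the branches was not tested.

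No gene of the set passed the test at 48 h. limma without the pairs called 0 of the 29 (0% of all genes), with SREBF1 and NSDHL at an unadjusted p under 0.05, as were 263 of all genes, or 2.47%. With the pairs as a block limma again called 0 of the 29 (0% of all genes), with 13 of them and 12.3% of all genes at an unadjusted p under 0.05 and a smallest adjusted p of 0.33 among the 29. Without CsA replicate 3, 23 of the 29 genes were below 0 with a median of -0.23. Without the whole of pair 3, 23 were below 0, the sterol median was -0.16, and the fatty acid median was 0.01. Without CsA replicate 1, 19 were below 0 and the median was -0.05; the sterol median was then -0.20 and the fatty acid median 0.06. Without control replicate 3, 19 were below 0, with medians of -0.22 and 0.06 for the branches. Leaving out control replicate 1 gave branch medians of -0.47 and -0.41, and leaving out CsA replicate 2 gave -0.49 and -0.27. The fatty acid branch was at -0.00 when control replicate 2 was left out. The sterol branch thus stayed below 0 with any 1 array left out, and the fatty acid branch did not. CsA replicate 1 was the lowest of the 6 arrays for 10 of the 17 sterol genes and CsA replicate 3 for 4, while control replicate 3 was the highest for 8 and control replicate 2 for 6. These counts were not made over all genes tested, so they are not read as a trait of the sterol genes.

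The difference between the CsA effects at the 2 times was asked next. For 24 of the 29 genes the effect at 48 h was below that at 12 h, with a median difference of -0.36 against -0.00 over all genes. Every pair difference at 48 h lay below every one at 12 h for 18 of the 29 genes, beside 8.97% of all genes tested. These were 13 sterol genes, 4 fatty acid genes and INSIG1, and PMVK showed the opposite order. In 11 of the 29 genes CsA was higher in all 3 pairs at 12 h and lower in all 3 at 48 h, beside 2.64% of all genes: HMGCS1, MVD, FDPS, SQLE, HSD17B7, SC5D, ACAT2, STARD4, ACLY, ACSS2 and INSIG1. limma called 0 of the 29 for this difference (0% of all genes). At an unadjusted p under 0.05 were 0 of the 29, beside 164 of all genes, or 1.54%. The fit blocked on pairs called 0 of the 29 as well (0% of all genes), with 13 of them and 9.08% of all genes at an unadjusted p under 0.05 and a smallest adjusted p of 0.27 among the 29. The sterol median of the difference was -0.45, and the fatty acid median was -0.24. Leaving out control replicate 1 at 48 h gave -0.71 for the sterol branch and -0.54 for the fatty acid branch. Leaving out CsA replicate 2 at 48 h gave -0.74 for the sterol branch. The fatty acid branch was at -0.12 when control replicate 3 at 12 h was left out and at -0.08 when CsA replicate 1 at 48 h was. These values use the same arrays as the comparisons at 12 h and 48 h and add no further evidence of their own.

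The promoters of the set were read from RefSeq (GRCh38.p14) as the 250 bases before each annotated start. They were searched for motifs of SREBPs and their partners. Of the 34 genes 30 had a promoter entry, 16 of the sterol branch, 10 of the fatty acid branch and all 4 regulators, with 42 starts in all. SREBPs bind DNA together with NF-Y, which binds CCAAT, and Sp1, which binds GGGCGG. Both strands were searched for these motifs, for the sterol regulatory element (SRE) in the form TCACNCCAC and for the palindromic E-box-type site TCACGTGA. CCAAT was found in 25 of the 42 promoters of the set, those of 14 sterol genes, 5 fatty acid genes, INSIG1 and SREBF2, beside 32.0% of the 35116 promoters in the table. At least 3 CCAAT matches lay in 1 promoter of EBP, FDPS, IDI1, MSMO1, MVD, MVK and NSDHL, beside 2.93% of all promoters. GGGCGG was found in 37 of the 42, beside 42.6% of all. The SRE form was found only in SREBF2 (0.883% of all promoters) and TCACGTGA only in INSIG1 (0.854% of all). No 2 different motifs overlapped in these promoters, and 2 pairs of CCAAT matches on opposite strands overlapped, in IDI1 and NSDHL. A match is a run of letters and no measure of binding. Other forms of the SRE were not searched, so a promoter without a match may still hold one.

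The promoters printed here are those of INSIG1 and SREBF2, which hold the rarer motifs, of MVD and STARD4, which were higher in all pairs at 12 h and lower in all pairs at 48 h, and of EBP, which fell with time. Capitals mark CCAAT on either strand (ATTGG when read on the reverse), the SRE form in SREBF2 and TCACGTGA in INSIG1, and all run 5′ to 3′ towards the start. They lie at chr7:155297628-155297877 (INSIG1, plus strand), chr22:41832855-41833104 (SREBF2, plus strand), chr16:88663092-88663341 (MVD, minus strand), chr5:111512536-111512785 (STARD4, minus strand) and chrX:48521558-48521807 (EBP, plus strand). Each ends at the base before the annotated start, outside the transcript.
INSIG1: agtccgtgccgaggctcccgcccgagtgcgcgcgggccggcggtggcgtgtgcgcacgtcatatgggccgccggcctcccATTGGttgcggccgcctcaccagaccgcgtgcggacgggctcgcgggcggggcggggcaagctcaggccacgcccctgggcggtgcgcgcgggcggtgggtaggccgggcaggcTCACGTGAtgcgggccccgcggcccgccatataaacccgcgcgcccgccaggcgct
SREBF2: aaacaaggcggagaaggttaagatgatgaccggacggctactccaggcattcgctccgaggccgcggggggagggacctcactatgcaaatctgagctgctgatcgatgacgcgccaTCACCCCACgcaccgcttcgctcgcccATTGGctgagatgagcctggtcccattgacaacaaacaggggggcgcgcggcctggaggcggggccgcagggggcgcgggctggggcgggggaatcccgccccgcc
MVD: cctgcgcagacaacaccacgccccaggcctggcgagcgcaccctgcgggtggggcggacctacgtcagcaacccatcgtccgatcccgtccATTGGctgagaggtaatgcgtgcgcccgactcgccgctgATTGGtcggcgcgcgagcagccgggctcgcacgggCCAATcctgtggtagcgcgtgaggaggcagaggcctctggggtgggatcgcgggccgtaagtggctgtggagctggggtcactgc
STARD4: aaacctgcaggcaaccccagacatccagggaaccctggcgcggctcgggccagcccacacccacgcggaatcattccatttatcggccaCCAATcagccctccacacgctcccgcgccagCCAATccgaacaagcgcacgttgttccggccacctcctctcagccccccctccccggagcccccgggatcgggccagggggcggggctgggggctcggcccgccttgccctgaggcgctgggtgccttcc
EBP: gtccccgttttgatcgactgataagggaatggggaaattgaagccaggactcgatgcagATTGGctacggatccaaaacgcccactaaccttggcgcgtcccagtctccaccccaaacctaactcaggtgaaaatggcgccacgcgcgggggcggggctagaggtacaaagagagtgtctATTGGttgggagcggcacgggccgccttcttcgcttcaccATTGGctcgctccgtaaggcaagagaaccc
In SREBF2 the SRE form and the CCAAT match lie close together, with the SRE form at 133 to 125 bases before the start and the CCAAT match at 106 to 102. In MVD the CCAAT matches begin 159, 120 and 85 bases before the start, and in EBP 191, 70 and 30. STARD4 has its matches 161 and 130 bases before the start.

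**Figure D3:**
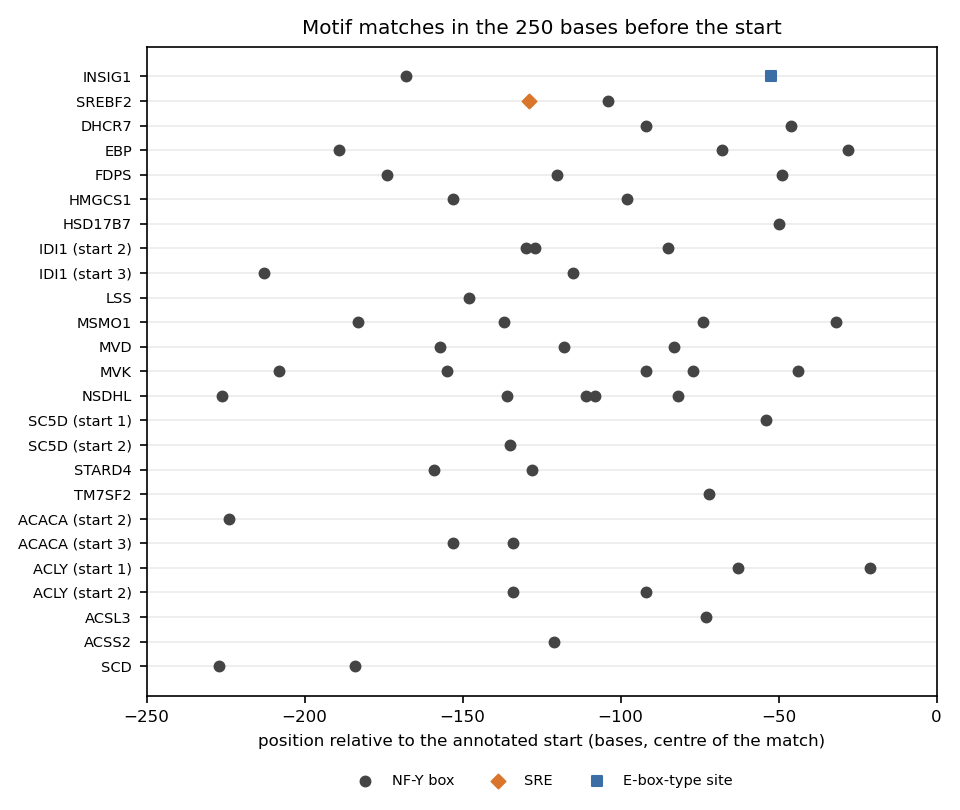
Positions of motif matches in the 250 bases before the annotated start (x axis, bases, centre of the match) for the promoters of the set with at least 1 match to the NF-Y box, SRE or E-box-type site; GC boxes, found in 37 of 42 promoters, are not drawn, and starts are numbered where a gene has several with matches. The SRE of SREBF2 and the E-box-type site of INSIG1 are the only matches of their kind, and 7 genes have at least 3 NF-Y boxes in a promoter.

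Among the regulators, INSIG1 (probe set 201626_at) was at 12.20, 11.89 and 11.67 in control and 12.44, 12.25 and 12.05 under CsA at 12 h (replicates 1, 2 and 3, log2). At 48 h INSIG1 was at 11.05, 11.46 and 11.82 in control and 10.98, 11.20 and 11.52 under CsA. CsA was the higher array of every pair at 12 h and the lower of every pair at 48 h, although the groups overlapped at both times. The difference was 0.33 (SE 0.22) at 12 h and -0.21 (SE 0.22) at 48 h. Between the times INSIG1 fell under CsA by 1.01 (SE 0.22, 2.02-fold, limma adjusted p = 0.017) and all CsA arrays at 48 h were below all at 12 h. In control cells the difference between the times was -0.48 (SE 0.22, limma adjusted p = 0.13). Both other probe sets of INSIG1 had the same signs in all 4 comparisons.

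SREBF1 (202308_at) stood higher under CsA at 48 h, where the sterol branch stood lower and the fatty acid branch was mixed. It was at 7.68, 7.82 and 7.78 in control and 8.07, 8.42 and 8.06 under CsA at 48 h, and at 7.65, 7.75 and 7.28 and 7.76, 7.85 and 7.57 at 12 h. At 48 h all 3 CsA arrays were above all 3 control arrays, and at 12 h the groups overlapped. The difference at 48 h was 0.42 (SE 0.15, 1.34-fold), with pair values of 0.39, 0.60 and 0.28 (limma adjusted p = 1.00, 0.34 with the pairs as a block, and 0.21 to 1.00 over 29 alternatives). Which of the SREBF1 transcripts, 1a or 1c, the probe set reads was not determined here. From 12 h to 48 h SREBF1 differed by 0.46 under CsA (SE 0.15, limma adjusted p = 0.064) and by 0.20 in control (SE 0.15, limma adjusted p = 0.32).

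SREBF2 (201247_at) and SCAP (212329_at) stayed within the spread between arrays. SREBF2 was at 8.42, 8.37 and 8.30 in control and 8.41, 8.51 and 8.58 under CsA at 12 h, and at 8.43, 8.50 and 8.44 and 8.05, 8.45 and 8.69 at 48 h. The CsA arrays at 48 h lay on both sides of the control arrays, which were close to each other. SREBF2 differed by 0.14 (SE 0.14) at 12 h and -0.06 (SE 0.14) at 48 h, and the second value was 0.11 without CsA replicate 1 and 0.10 as the mean of its probe sets. SCAP was at 8.10, 7.98 and 8.12 and 7.88, 7.59 and 8.08 at 12 h, lower under CsA in every pair, and at 8.66, 8.28 and 7.83 and 8.36, 8.23 and 7.88 at 48 h. SCAP differed by -0.22 (SE 0.21) at 12 h and -0.10 (SE 0.21) at 48 h, and the second was 0.10 without control replicate 1 and 0.04 without CsA replicate 3.

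In the first steps of the sterol branch, from acetyl-CoA to farnesyl diphosphate, MVD differed most under CsA at 12 h. MVD, the mevalonate diphosphate decarboxylase (203027_s_at), was at 7.19, 6.72 and 6.72 in control and 7.58, 7.32 and 7.35 under CsA at 12 h. At 48 h it was at 6.17, 7.12 and 6.71 and 6.05, 6.85 and 6.44. All CsA arrays at 12 h were above all control arrays, and at 48 h CsA was the lower array of every pair while the groups overlapped. MVD differed by 0.54 (SE 0.26, 1.46-fold) at 12 h, with pairs at 0.40, 0.60 and 0.63 (limma adjusted p = 1.00, and 0.24 with the pairs as a block). At 48 h MVD differed by -0.22 (SE 0.26), and its effect at 48 h minus that at 12 h was -0.77 (SE 0.37, limma adjusted p = 1.00, and 0.27 with the pairs as a block). From 12 h to 48 h MVD fell by 0.97 under CsA (SE 0.26, 1.96-fold, limma adjusted p = 0.035), with no overlap of the arrays. In control cells MVD differed by -0.21 (SE 0.26) between the times.

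HMGCS1, the cytosolic HMG-CoA synthase (221750_at), was at 11.75, 11.69 and 11.34 in control and 11.97, 11.86 and 11.39 under CsA at 12 h. At 48 h HMGCS1 was at 9.61, 10.88 and 11.30 and 9.59, 10.81 and 10.75, with replicate 1 far below the others in both groups. The control arrays at 48 h lay below those at 12 h, as did the CsA arrays, but replicate 1 widened the spread. HMGCS1 differed between the times by -0.996 in control (SE 0.43, limma adjusted p = 0.11) and -1.35 under CsA (SE 0.43, limma adjusted p = 0.060). CsA minus control was 0.14 (SE 0.43) at 12 h and -0.22 (SE 0.43) at 48 h, and the second was 0.18 without CsA replicate 1 and 0.14 without control replicate 3.

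IDI1 and FDPS fell with time under CsA. IDI1, the isopentenyl diphosphate isomerase (208881_x_at), was at 12.68, 12.54 and 12.26 under CsA at 12 h and 11.15, 11.77 and 11.78 at 48 h, and at 12.52, 12.45 and 12.04 and 11.28, 11.76 and 12.31 in control. FDPS, the farnesyl diphosphate synthase (201275_at), was at 13.66, 13.70 and 13.35 and 12.59, 13.14 and 13.04 under CsA and at 13.48, 13.56 and 13.27 and 12.84, 13.20 and 13.38 in control. For both genes the CsA arrays of the 2 times did not overlap, and the control arrays did. IDI1 fell by 0.93 (SE 0.27, 1.90-fold, limma adjusted p = 0.045) and FDPS by 0.65 (SE 0.18, 1.57-fold, limma adjusted p = 0.044). In control cells the differences were -0.56 (SE 0.27) and -0.30 (SE 0.18). The suffix of the IDI1 probe set marks probes that can also bind other transcripts. MVK, the mevalonate kinase, differed by -0.48 (SE 0.33) between CsA and control at 48 h, and its pair values there were 0.06, -0.31 and -1.20, the lowest in pair 3. PMVK, the kinase of the next step, ran against the branch, with pairs at -0.21, -0.06 and -0.02 at 12 h and 0.04, 0.19 and 0.12 at 48 h.

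From squalene to cholesterol, NSDHL was called for its change with time under CsA more steadily than the other genes. NSDHL, a sterol dehydrogenase of the C4 demethylation complex (209279_s_at), was at 10.30, 10.15 and 10.17 in control and 10.27, 10.13 and 10.16 under CsA at 12 h. At 48 h NSDHL was at 9.41, 9.98 and 9.65 and 9.16, 9.63 and 8.94. At 12 h the groups lay together, and at 48 h CsA was the lower array of every pair. NSDHL fell by 0.94 under CsA between the times (SE 0.18, 1.92-fold, limma adjusted p = 0.012), and it was the only gene of the set called in all 18 alternatives of that comparison. In control cells it differed by -0.52 (SE 0.18, limma adjusted p = 0.057, 0.020 to 0.19 over the alternatives), with no overlap of the arrays. CsA minus control at 48 h was -0.44 (SE 0.18, limma adjusted p = 1.00), with pairs at -0.25, -0.35 and -0.71.

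EBP, the sterol isomerase also known as emopamil binding protein (213787_s_at), fell in both groups. It was at 12.23, 12.40 and 12.24 in control at 12 h and 10.63, 11.11 and 11.57 at 48 h, and at 12.29, 12.42 and 12.19 and 10.32, 11.22 and 11.49 under CsA. All arrays at 48 h lay below all arrays at 12 h, and replicate 1 was the lowest at 48 h. EBP fell by 1.18 in control (SE 0.29, 2.27-fold, limma adjusted p = 0.017) and by 1.29 under CsA (SE 0.29, 2.45-fold, limma adjusted p = 0.020). CsA minus control was within the spread at both times, at 0.01 (SE 0.29) and -0.09 (SE 0.29). Both other EBP probe sets past the filter had the same signs in all 4 comparisons.

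SQLE, the squalene epoxidase (209218_at), was at 12.63, 12.50 and 12.32 in control and 12.64, 12.58 and 12.34 under CsA at 12 h, and at 11.54, 12.28 and 12.35 and 11.19, 12.22 and 11.47 at 48 h. The arrays lay together at 12 h, and at 48 h CsA replicates 1 and 3 were the lowest. SQLE differed by 0.04 (SE 0.27) at 12 h and by -0.43 (SE 0.27) at 48 h. The 12 h value was -0.04 without control replicate 3 and -0.02 without CsA replicate 1. Other SQLE probe sets past the filter were at 0.14, -0.05 and -0.10 at 12 h, so its sign there rests on the probe set used. From 12 h to 48 h SQLE differed by -0.90 under CsA (SE 0.27, limma adjusted p = 0.053) with no overlap of the arrays.

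MSMO1, the C4 sterol methyl oxidase (209146_at), was at 13.78, 13.69 and 13.53 and 13.77, 13.80 and 13.54 at 12 h and at 13.30, 13.79 and 13.80 and 13.20, 13.60 and 13.12 at 48 h, control before CsA. Only CsA replicates 1 and 3 at 48 h, with control replicate 1, lay below the 12 h arrays. MSMO1 differed by -0.32 (SE 0.17, limma adjusted p = 1.00) at 48 h. HSD17B7, the ketosteroid reductase of the same complex (220081_x_at), was at 10.51, 10.27 and 10.15 and 10.76, 10.53 and 10.47 at 12 h and at 10.94, 11.17 and 10.66 and 10.90, 10.83 and 9.71 at 48 h. Control cells were higher at 48 h than at 12 h on every array, and CsA replicate 3 at 48 h was the lowest of all 12 arrays. HSD17B7 differed by 0.28 (SE 0.28) at 12 h and -0.44 (SE 0.28) at 48 h, a difference of -0.72 between the effects (SE 0.39, limma adjusted p = 1.00). Its probe set also carries the suffix for probes that can bind other transcripts.

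The other genes of this stretch were LSS, TM7SF2, SC5D and DHCR7. LSS, the lanosterol synthase, differed by 0.31 (SE 0.24) at 12 h and -0.25 (SE 0.24) at 48 h. SC5D and DHCR7, a desaturase and a reductase of the last steps, differed by 0.20 and 0.16 at 12 h and by -0.37 and -0.29 at 48 h. TM7SF2, a C14 sterol reductase, stood apart from the branch with -0.23 at 12 h and a pair 3 value of -0.61. None of these differences passed the test.

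ACAT2, which makes acetoacetyl-CoA in the cytosol at the head of the sterol branch (209608_s_at), was at 12.67, 12.81 and 12.26 in control and 12.86, 12.84 and 12.43 under CsA at 12 h. At 48 h ACAT2 was at 11.53, 12.35 and 12.25 and 10.89, 12.12 and 11.50, lower under CsA in every pair. CsA minus control at 48 h was -0.54 (SE 0.31, limma adjusted p = 1.00, and 0.33 with the pairs as a block, the smallest of the set). Under CsA ACAT2 fell by 1.20 from 12 h to 48 h (SE 0.31, 2.30-fold, limma adjusted p = 0.033), with no overlap. In control cells it differed by -0.53 (SE 0.31).

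STARD4, a soluble carrier of cholesterol between membranes (226390_at), went the other way with time. It was at 10.04, 9.62 and 9.32 in control and 10.39, 10.15 and 9.72 under CsA at 12 h, and at 11.00, 11.29 and 10.26 and 10.96, 10.86 and 9.42 at 48 h. Control arrays at 48 h were all above those at 12 h, whereas CsA replicate 3 at 48 h fell among the control arrays at 12 h. STARD4 differed between the times by 1.19 in control (SE 0.41, limma adjusted p = 0.055, 8.4e-04 to 0.17 over the alternatives) and by 0.33 under CsA (SE 0.41). CsA minus control was 0.43 (SE 0.41) at 12 h and -0.44 (SE 0.41) at 48 h.

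**Figure D4:**
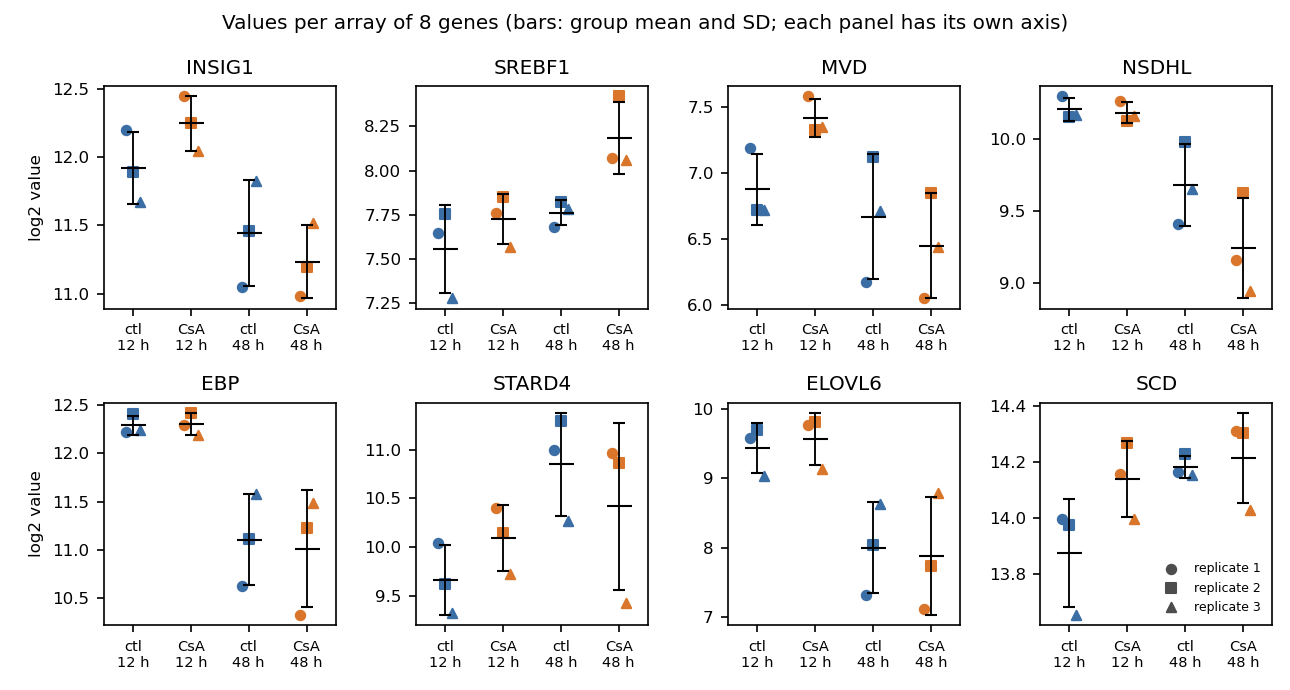
Log2 value on each array for 8 genes of the set (blue control, orange CsA; symbols mark the replicate number; black bars are the mean and SD of each group of 3; each panel has its own axis). SREBF1 is highest on the 3 CsA arrays at 48 h, EBP and ELOVL6 are lower at 48 h in both groups, and MVD is higher under CsA at 12 h with no overlap.

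In the fatty acid branch ELOVL6 changed most with time. ELOVL6, an elongase of saturated fatty acids (210868_s_at), was at 9.59, 9.69 and 9.03 in control at 12 h and 7.33, 8.04 and 8.64 at 48 h, and at 9.77, 9.81 and 9.14 and 7.11, 7.73 and 8.79 under CsA. All arrays at 48 h were below all arrays at 12 h, and replicate 3 was the lowest at 12 h but the highest at 48 h in both groups. ELOVL6 fell by 1.43 in control (SE 0.43, 2.70-fold, limma adjusted p = 0.036) and fell by 1.69 under CsA (SE 0.43, 3.23-fold, limma adjusted p = 0.030). CsA minus control was 0.14 (SE 0.43) at 12 h and -0.12 (SE 0.43) at 48 h.

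FASN, the fatty acid synthase (212218_s_at), was at 9.58, 9.71 and 9.42 in control and 9.65, 9.90 and 9.59 under CsA at 12 h, and at 7.99, 9.14 and 9.41 and 7.85, 9.38 and 9.13 at 48 h. Replicate 1 at 48 h was low in both groups, and all 48 h arrays of control were below those at 12 h. FASN differed by 0.14 (SE 0.41) at 12 h and -0.06 (SE 0.41) at 48 h, and the second value turned to 0.40 when CsA replicate 1 was left out, to 0.22 for control replicate 3 and to 0.08 for control replicate 2. Its differences between the times were -0.72 in control (SE 0.41, limma adjusted p = 0.21) and -0.93 under CsA (SE 0.41, limma adjusted p = 0.15).

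SCD, the stearoyl-CoA desaturase (200832_s_at), was at 14.00, 13.97 and 13.66 in control and 14.16, 14.27 and 14.00 under CsA at 12 h. At 48 h SCD was at 14.17, 14.23 and 14.15 and 14.31, 14.31 and 14.03. CsA was higher in every pair at 12 h, where the highest control array and the lowest CsA array met at 14.00, and at 48 h pairs 1 and 2 were higher and pair 3 lower. SCD differed by 0.26 (SE 0.13, 1.20-fold, limma adjusted p = 1.00, and 0.57 with the pairs as a block) at 12 h and 0.03 (SE 0.13) at 48 h. The 48 h value was -0.02 without CsA replicate 1 and -0.01 without CsA replicate 2. The other 3 SCD probe sets were also above 0 at 12 h, at 0.34, 0.48 and 0.48.

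ACSS2, which makes acetyl-CoA from acetate (234312_s_at), was at 10.69, 10.50 and 9.72 in control and 10.83, 10.94 and 10.29 under CsA at 12 h, and at 10.24, 11.02 and 11.31 and 9.81, 11.00 and 10.24 at 48 h. Control replicate 3 at 12 h was the lowest of the 12 arrays and control replicate 3 at 48 h the highest. ACSS2 differed by 0.38 (SE 0.38) at 12 h and -0.51 (SE 0.38) at 48 h, a difference of -0.89 between the effects (SE 0.53, limma adjusted p = 1.00). LPIN1, a phosphatidic acid phosphatase of triglyceride synthesis (212276_at), was at 9.94, 9.60 and 9.61 and 10.27, 10.09 and 10.14 at 12 h and at 9.10, 9.90 and 10.20 and 9.21, 10.11 and 9.53 at 48 h. All CsA arrays at 12 h were above all control arrays, and at 48 h only pair 3 was lower under CsA. LPIN1 differed by 0.45 (SE 0.28, 1.37-fold, limma adjusted p = 1.00) at 12 h and -0.12 (SE 0.28) at 48 h. Both other LPIN1 probe sets were above 0 at 12 h, at 0.38 and 0.47.

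ACLY, ACACA and AACS differed little. ACLY, which makes cytosolic acetyl-CoA from citrate, differed by 0.09 (SE 0.24) at 12 h and -0.16 (SE 0.24) at 48 h. ACACA, the acetyl-CoA carboxylase, differed by 0.11 (SE 0.15) and -0.06 (SE 0.15). AACS, which activates acetoacetate, was above 0 in every pair at both times, with 0.12 (SE 0.13) and 0.15 (SE 0.13). FADS2, a desaturase of polyunsaturated fatty acids, lay between 3.40 and 3.55 on all arrays and was not tested. FDFT1 and ACSL3 had no probe set paired with their symbol, and CYP51A1 and FADS1 lay on probe sets annotated with several symbols, so these 4 genes were not analysed here.

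The change from 12 h to 48 h was asked separately in control and CsA cells. Under CsA it holds the time of exposure as well as the time in culture. The times are separate arrays, and whether they were separate experiments is not stated, so time in culture and such a difference cannot be told apart. In control cells 2 of the 29 genes fell (EBP and ELOVL6), beside 13.5% of all genes that fell, and 0 rose, beside 12.4% of all genes. At an unadjusted p under 0.05 were 6 of the 29, or 20.7%, beside 41.5% of all genes. Under CsA 8 of the 29 fell, beside 7.41% of all genes, and 0 rose, beside 6.64%. At an unadjusted p under 0.05 were 17 of the 29, or 58.6%, beside 33.0% of all genes. The 8 were NSDHL, INSIG1, EBP, ELOVL6, ACAT2, MVD, FDPS and IDI1: 6 sterol genes, 1 fatty acid gene and 1 regulator. The medians over the 29 genes were -0.20 in control and -0.65 under CsA, against 0.01 over all genes in each. The sterol medians were -0.21 and -0.71, and the fatty acid medians were -0.14 and -0.44. That more genes were called under CsA than in control does not show that the groups differ: the test of that difference is the comparison of the CsA effects at the 2 times, in which limma called 0 of the 29 genes (smallest adjusted p = 1.00).

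Single arrays decided several of these calls. In control cells the 2 calls were both lost without control replicate 2 or 3 at 12 h or without control replicates 1 or 2 at 48 h, when the limma adjusted p ran from 0.051 to 0.063 for EBP and from 0.058 to 0.13 for ELOVL6. The ELOVL6 call was also lost without control replicate 1 (0.096), CsA replicate 1 (0.051) or CsA replicate 2 (0.050) at 12 h. In control cells 6 genes of the set were called without control replicate 3 at 48 h and 5 without CsA replicate 3 at 48 h. Under CsA only NSDHL remained called without CsA replicate 1 at 12 h or CsA replicate 2 at 12 h, NSDHL and INSIG1 without CsA replicate 3 at 12 h, and NSDHL and EBP without CsA replicate 1 at 48 h. Without control replicate 1, 2 or 3 at 12 h 5 of the 8 remained called, with FDPS (limma adjusted p = 0.057 to 0.066) and IDI1 (0.055 to 0.064) lost each time, and with ACAT2 (0.051) lost without replicate 1 and MVD (0.051 and 0.050) lost without replicate 2 or 3. Without control replicate 2 at 48 h 6 remained, FDPS and IDI1 being lost. Without CsA replicate 2 at 48 h FDPS (0.054), IDI1 (0.070) and ELOVL6 (0.081) were lost, and 8 genes of the set were called in all. All 8 remained called without control replicate 1 or 3 or CsA replicate 3 at 48 h, when 12, 9 and 10 genes of the set were called. The shares of all genes called with an array left out are not given here.

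**Figure D5:**
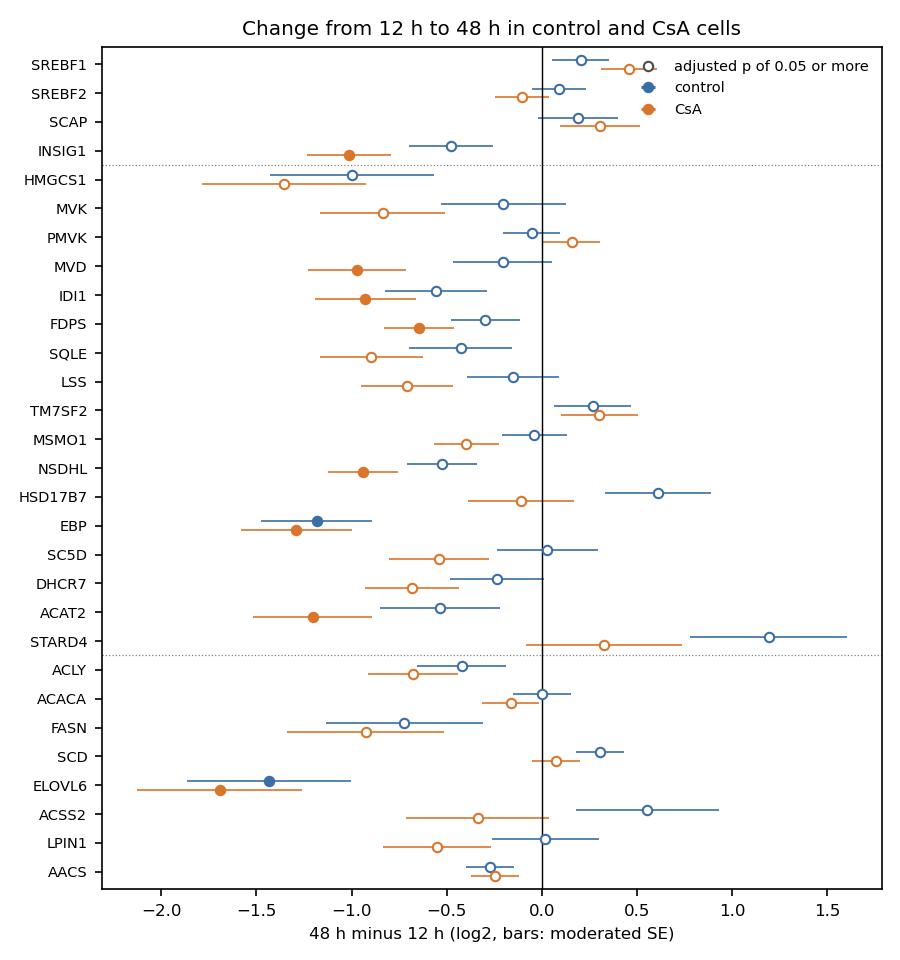
Difference between 48 h and 12 h on the log2 scale for the 29 tested genes in control (blue) and CsA (orange) cells, with moderated SE as bars; filled circles have a limma adjusted p under 0.05 over all 10650 genes. Filled circles lie to the left of 0 only: 2 in control, beside 13.5% of all genes that fell, and 8 under CsA, beside 7.41%. STARD4 has the highest value in control, 1.19, with an open circle.

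The genes around the pathway that are not in the set were counted in 7 further lists, of which 72 of 86 genes were tested. In the CsA comparisons limma called 0 of the 72 at 12 h and at 48 h, with 0 and 3 at an unadjusted p under 0.05 (1.30% and 2.47% of all genes). With the pairs as a block 4 and 10 were at an unadjusted p under 0.05, beside 7.26% and 12.3% of all genes. Between the times 13 of the 72 rose and 3 fell in control, and 6 rose and 4 fell under CsA. Of all genes 12.4% rose and 13.5% fell in control and 6.64% rose and 7.41% fell under CsA, and with 5 to 14 genes a list the counts of single lists are not read against these shares. In sterol transport and esterification 2 of 11 rose in both groups. GRAMD1A, which moves cholesterol from the plasma membrane to the ER, rose by 1.73 in control (SE 0.24, limma adjusted p = 0.0017) and by 1.36 under CsA (SE 0.24, 0.0077). NPC1, which exports cholesterol from lysosomes, rose by 1.36 (SE 0.22, 0.0034) and 0.76 (SE 0.22, 0.048; limma adjusted p).

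The next list joins LXR targets, which are genes switched on by oxysterols, with genes of sterol efflux. Of its tested genes 2 of 5 rose in control and 1 under CsA. APOE, an apolipoprotein of cholesterol export, rose by 1.03 in control (SE 0.19, limma adjusted p = 0.0056) and by 0.87 under CsA (SE 0.19, 0.018). SMPDL3A, a sphingomyelinase-like enzyme, rose by 1.14 in control (SE 0.18, limma adjusted p = 0.0026) and differed by 0.58 under CsA (0.055). In the list of SREBP processing and INSIG breakdown, 3 of 11 rose and 1 fell in control. Under CsA 1 rose and 1 fell. That list also holds the genes of the LXR receptors and TRIB3, so not every gene called belongs to either process. UFD1, which helps to extract ubiquitinated proteins from the ER, fell by 0.45 in control (SE 0.08, limma adjusted p = 0.0050) and by 0.49 under CsA (SE 0.08, 0.0063). TRIB3, a stress-induced pseudokinase, rose by 1.91 in control (SE 0.45, limma adjusted p = 0.014).

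In the non-sterol isoprenoid list 2 of 10 rose and 1 fell in control, and 1 rose and 2 fell under CsA. PDSS1, which makes the side chain of coenzyme Q, fell by 2.10 in control (SE 0.48, limma adjusted p = 0.013) and by 1.82 under CsA (SE 0.48, 0.033). Of the other fatty acid genes 2 of 14 rose in control and 0 were called under CsA, with 4 at an unadjusted p under 0.05. ACSL1, an acyl-CoA synthetase, rose by 1.37 in control (SE 0.38, limma adjusted p = 0.026). In glycerolipid synthesis 2 of 11 rose and 1 fell in control, and 1 rose and 1 fell under CsA. LPIN2, a relative of LPIN1, rose by 0.90 in control (SE 0.16, limma adjusted p = 0.0052) and by 0.56 under CsA (SE 0.16, 0.047), and GPAM, the first enzyme of triglyceride synthesis, fell by 0.67 under CsA (SE 0.15, 0.021). Of the 10 genes of fatty acid oxidation limma called 0 in either group, with 3 in control and 2 under CsA at an unadjusted p under 0.05.

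Other probe sets were checked where a gene had them. There were 28 further probe sets of 15 genes of the set past the filter. Their sign was that of the probe set used for 21 of 28 at 12 h, 24 at 48 h, 23 for the change with time in control and 26 for that under CsA. ELOVL6 is 1 gene where they disagreed at 48 h, at -0.12 for the probe set used and 0.10 and 0.24 for the others, and all 3 were below 0 for the change with time in control (-1.43, -1.35 and -1.47). For SREBF2 at 48 h the others were at 0.05 and 0.31.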

How the data were processed

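Gene expression was measured on 12 Affymetrix arrays, 3 in each of 4 groups. The authors deposited log2 values made with GCRMA (background correction, quantile normalization and summary per probe set), per the submitters' processing notes; its version is not given in the sources used here. No further normalization was applied. Probe sets were named from GEO's platform annotation: 41091 of 54675 had 1 symbol, 1801 several and 11721 none. The genes and lists were chosen with earlier results of these data known, so counts over them are descriptions.

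The brightest probe set of each gene by its mean was kept (19775 genes), and genes above 4 (log2) on at least 3 of the 12 arrays were tested (10650). limma 3.58.1 in R 4.3.3 fitted 4 group means (8 residual degrees of freedom) with eBayes, two-sided, with Benjamini-Hochberg adjustment over the 10650 genes and a threshold of 0.05. The fits were run on simulated data with planted differences, to check that mean estimates came near the planted sizes. The simulation gave a gene the same SD in all groups, so it does not show the error rate of the calls. Whether the numbered cultures were separate experiments is not stated beyond their label as biological replicates, so p-values measure the spread between these samples.

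The labels do not say what a replicate number stands for. Deviations from the group means of same-numbered control and CsA arrays correlated at 0.36, 0.52 and 0.59 at 12 h and at 0.78, 0.54 and 0.74 at 48 h, and between the times at -0.14 to 0.22. The numbers were therefore taken as pairs within a time, from the data, and a fit blocked on them (4 residual degrees of freedom) is given beside the results. Values on every array are given for the 4 genes of the set with the largest moderated statistic in each comparison, those called, and INSIG1, SREBF1, SREBF2, SCAP, FASN, SCD, SQLE and HMGCS1. Up to 2 genes with the largest statistic are named from each further list. Alternatives changed the block, the moderation, the filter, the choice of probe set, the centring, the array weights and the arrays included. Promoter sequences and coordinates are those of RefSeq GRCh38.p14, searched for exact motifs on both strands. Figures were drawn with matplotlib 3.10.9.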

Additional observations from a re-analysis of the deposited data

How the results depend on the processing

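With the pairs as a block, 0 genes of the set were called for CsA against control at 12 h, at 48 h or for the difference between the times, as without it. The fit of the 12 h arrays alone with the block, a variance trend and robust moderation was chosen after seeing the data. It called 5 at 12 h, beside 0.958% of all genes called higher. With the block but no trend or robust moderation, the 12 h arrays alone called 0 of the set. For the change with time in control, where 2 genes were called, 1 was called with no filter, 4 with arrays centred on their median and 11 with array weights. Under CsA, where 8 were called, 3 were called with no filter and 5 with array weights. The estimation of array weights stopped before it converged. Its weights ran from 0.014 for CsA replicate 2 at 48 h, almost left out of that fit, to 4.49 for control replicate 2 at 48 h. The cause of these shifts in the counts was not tested. With 1 array left out, the counts called ran from 0 to 6 in control and from 1 to 12 under CsA. The shares of all genes called in these alternatives for the change with time are not given here, so the counts are not read against them. With all arrays and equal weights, 13.5% of all genes fell and 12.4% rose in control, and 7.41% fell and 6.64% rose under CsA.

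With 1 array left out, the sterol median ran from 0.018 to 0.27 at 12 h and from -0.74 to -0.30 for the difference between the effects. The fatty acid median ran from 0.080 to 0.27 at 12 h, from -0.41 to 0.059 at 48 h and from -0.54 to -0.079 for that difference. With 1 array or 1 pair left out, some single genes changed sign. At 12 h this was SQLE (-0.043 to 0.13). At 48 h these were SREBF2 (-0.21 to 0.11), SCAP (-0.32 to 0.10), FASN (-0.49 to 0.40), SCD (-0.024 to 0.13) and HMGCS1 (-0.71 to 0.18). SQLE, SCAP and HMGCS1 changed sign only with a single array left out, which breaks a pair, and not with a whole pair left out. SREBF2 and SCD also did so without pair 1 (0.10 and -0.024), and FASN without pair 3 (0.051). SREBF2 at 48 h was also 0.10 as the mean of its probe sets. INSIG1 and SREBF1 kept their sign at both times in all 29 alternatives. Precision is limited throughout by having 3 arrays a group.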
